A study of Rattus norvegicus with 12 samples.

Results

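Proliferative neural stem cell (NSC) cultures of the spinal cord were compared with proliferative NSC cultures of the brain, both taken from Sprague Dawley rats on postnatal days 3 to 5. The comparison used 6 of the study's 12 Affymetrix Rat230_2 arrays, namely the 3 titled SNSC and the 3 titled BNSC, which the series title and the remaining sample titles place in the proliferative state. The other 6 arrays carry "fenhua" (differentiation) in their titles and hold differentiated cultures of the same 2 tissues, 3 arrays each. No allele, transgene or drug is named for any group, and dissection, medium, passage number and the source of each replicate are not given in the sources used here, so the spread between arrays, on which every p-value rests, may be technical. All genes were described, ordered by positional identity, cell composition, cell cycle, signalling, extracellular matrix and metabolism.

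NSCs are dividing cells of the nervous system from which neurons, astrocytes and oligodendrocytes can form. Along the body axis they carry transcription factors of the place they came from: homeobox genes such as Lhx2, Emx2 and the Dlx genes mark the forebrain, whereas the clustered Hox genes are expressed from the hindbrain backwards and are combined differently at each level of the cord. Cultures from postnatal tissue may also hold committed glial precursors, microglia and cells of the meninges, and in bulk RNA fewer cells of a type and less RNA per cell cannot be told apart.

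Signals are the deposited log2 values of probe sets, the groups of short probes that together read the 3' part of a transcript. A gene with several probe sets was represented by the brightest of them, on average over the 12 arrays. Genes were tested with limma, and a gene was called higher or lower where its Benjamini-Hochberg adjusted p over all 20834 probe sets tested was under 0.05. All adjusted p-values below are of this kind. A group was dim for a gene where all 3 of its arrays lay under their own 40th percentiles, and its floor is the mean of those percentiles, 6.11 for brain and 6.36 for spinal cord. A fold against a dim group is taken against this floor and written "at least", while genes dim in both tissues have no fold. Where 1 or 2 arrays of a group exceeded their percentiles the group was not dim and its measured mean was used, and where that mean still lay under the floor, the fold against the floor is given beside it, an addition made after the data were seen. In 31 lists some members passed the filter on low values through arrays of 1 tissue alone, in either state, and their direction can follow from the filter. Their number stands beside the counts of a list where it is 2 or more ("2 through cord alone"), and such counts are descriptions.

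Of the 20834 probe sets, 7877 were called (37.8%), 4033 of them higher (19.4%) and 3844 lower (18.5%) in spinal cord. Of 11218 genes, 4926 were called (43.9%), 2373 higher (21.2%) and 2553 lower (22.8%), and the 3 arrays of both tissues did not overlap for 50.5% of genes. With dim groups at their floor, 1119 genes were called higher and 475 called lower by 2-fold or more. The call split moved with array scaling: 51.2% of called probe sets were higher in spinal cord as deposited, and 31.7% after each array was centred on its median, a step that shifted the median difference of all genes from -0.04 to -0.25. Across probe sets, which do not count as replicates, arrays correlated at r = 0.954 to 0.968 within brain, 0.940 to 0.972 within spinal cord and 0.829 to 0.880 between them. Spinal cord replicate 1 stood apart from its group: 171 of 9293 genes lay 2-fold or more above the mean of the other 2 cord arrays and 195 as far below it (3.94% together). The same share was 0.366% to 1.44% for the other 5 arrays, and results that spinal cord replicate 1 moves are given with and without it. The 5S ribosomal RNA control was 9.50 to 11.02 on the brain and 8.65 to 9.38 on the spinal cord arrays, and the 3' minus 5' signal of Gapdh, a sign of RNA quality, was 0.08 to 0.13 and -0.01 to 0.10. The part of these controls in the results was not tested.

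**Figure D1:**
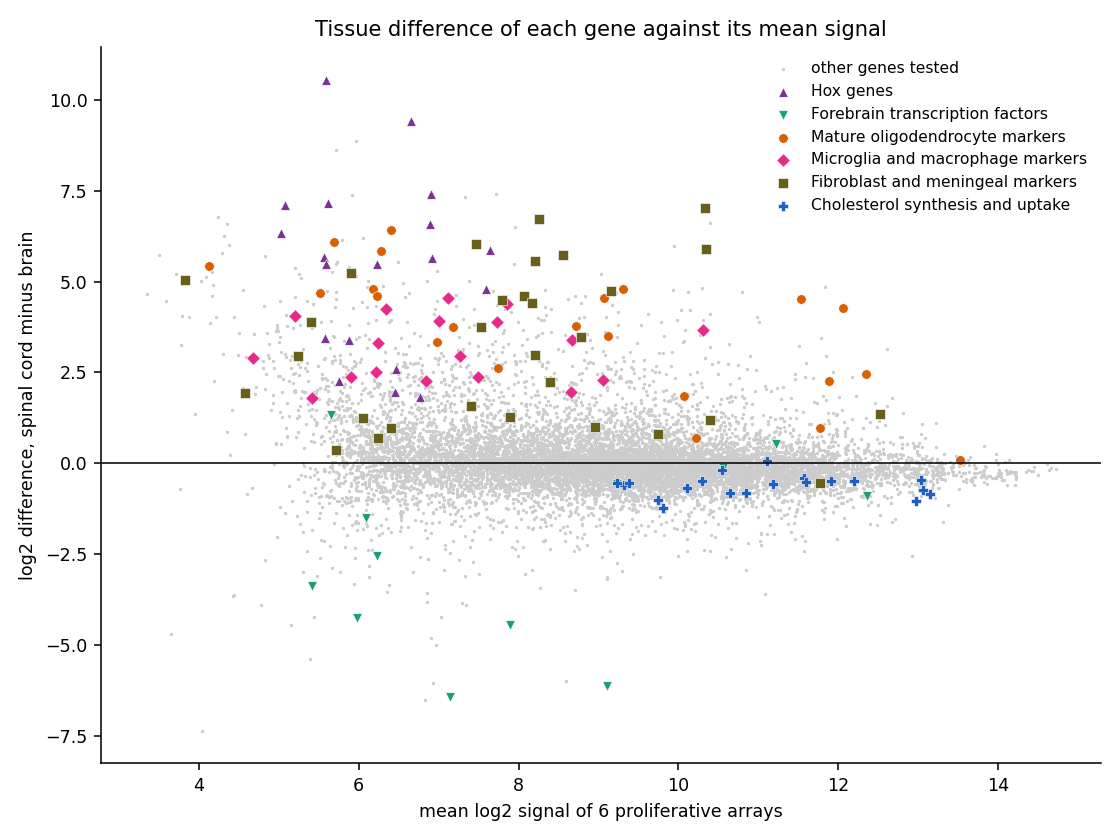
Each point is 1 of the genes tested, with its mean log2 signal over the 6 proliferative arrays on the horizontal axis and its fitted log2 difference, spinal cord minus brain, on the vertical axis. Dim groups are plotted at their measured values here, and genes dim in both tissues are left out. Hox genes and microglial markers lie above 0, as do nearly all mature oligodendrocyte and fibroblast markers, while most forebrain factors lie below 0 and most cholesterol genes in a narrow band just under it.

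Dcn, the small collagen-binding proteoglycan decorin, gave 6.38, 7.23 and 6.85 on the brain arrays and 13.28, 14.23 and 14.04 on the spinal cord arrays, 131-fold higher (adjusted p = 8.9e-07). Apod, the lipid carrier apolipoprotein D, was 98.7-fold higher (63.7-fold without brain replicate 1 and 151-fold without brain replicate 2). Mmp3, the matrix protease stromelysin, was 62.9-fold, Col3a1, the fibrillar collagen of soft tissue, 59.1-fold, and Septin4, a cytoskeletal GTPase, 37.0-fold higher. Genes with the largest folds were drawn only from those without overlap between the tissues, so its absence in these 5 is a condition of the choice. Many genes named from the lists below were picked for a call and a large difference, from which a lack of overlap largely follows. Brain and cord arrays did not overlap for 50.5% of all genes tested, so each such statement below is a description and no separate support. Among the genes lower in spinal cord the largest folds were Lhx2, the forebrain homeobox factor, at 70.0-fold (56.4-fold against the floor, with 1 cord array above its percentile), and Pnoc, the precursor of the neuropeptide nociceptin, at least 37.2-fold. Pnoc lay at 11.19, 11.73 and 11.81 in brain and at 5.52, 6.04 and 5.26 in spinal cord (adjusted p = 4.7e-07). Mamdc2, a secreted matrix protein, was 11.2-fold, Spon2, the matrix protein spondin 2, 8.77-fold, and Lratd1 9.14-fold lower. Sectm1b (at least 13.2-fold) and LOC100912227 (at least 12.1-fold), whose roles are not stated here, were dim on every spinal cord array. Iqgap2, a scaffold of the actin cortex, was 8.72-fold lower, and 14.1-fold without spinal cord replicate 1.

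Promoters of 4 genes are shown to set 2 positional factors beside a myelin and a connective tissue gene. Each is the called member of its list with the largest difference (dim groups at the floor) among those with an entry in RefSeq's rat promoter sequences. Each run is the 250 bases before the annotated start, 5' to 3' on the gene's strand (assembly GRCr8), with every CG dinucleotide in capitals. They are the Hox gene Hoxa9 (chr4:82657049-82657298, minus strand), the forebrain factor Lhx2 (chr3:42535494-42535743, plus strand), the myelin gene Mag (chr1:95291045-95291294, minus strand) and the connective tissue gene Postn (chr2:140677811-140678060, plus strand).
Hoxa9: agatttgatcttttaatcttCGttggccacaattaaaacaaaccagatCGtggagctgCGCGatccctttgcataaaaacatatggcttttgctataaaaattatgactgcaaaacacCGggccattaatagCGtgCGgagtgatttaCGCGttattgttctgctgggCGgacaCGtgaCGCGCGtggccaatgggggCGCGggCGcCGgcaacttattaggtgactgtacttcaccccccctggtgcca
Lhx2: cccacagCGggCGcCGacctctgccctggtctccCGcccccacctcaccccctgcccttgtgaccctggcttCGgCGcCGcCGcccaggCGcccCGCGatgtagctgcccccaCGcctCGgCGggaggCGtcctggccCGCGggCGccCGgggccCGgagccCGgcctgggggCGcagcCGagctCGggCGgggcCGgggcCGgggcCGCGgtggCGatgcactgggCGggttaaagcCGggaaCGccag
Mag: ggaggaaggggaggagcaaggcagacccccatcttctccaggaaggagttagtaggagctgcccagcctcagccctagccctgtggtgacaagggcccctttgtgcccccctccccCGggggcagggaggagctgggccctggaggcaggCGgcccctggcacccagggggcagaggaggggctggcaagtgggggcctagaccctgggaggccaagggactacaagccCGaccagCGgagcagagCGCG
Postn: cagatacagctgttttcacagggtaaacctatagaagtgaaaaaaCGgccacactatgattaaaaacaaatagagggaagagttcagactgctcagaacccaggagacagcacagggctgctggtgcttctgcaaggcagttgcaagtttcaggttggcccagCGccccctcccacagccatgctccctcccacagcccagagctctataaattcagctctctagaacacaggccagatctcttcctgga
There were 18 CG in Hoxa9, 33 in Lhx2, 6 in Mag and 2 in Postn. Over the 9376 tested genes with an entry the median was 17. The median was 16 for the 10 Hox genes called higher that had an entry, 17.5 for the 6 forebrain factors called lower, 4 for the 11 microglial genes called higher that had an entry, 6 for 17 fibroblast genes and 14.5 for 16 mature oligodendrocyte genes, against 17 for 14 cholesterol genes called lower. TATAAA, the letters of the TATA box, was searched on both strands and lies in the Hoxa9 and Postn runs, as in 6.29% of the tested genes' promoters. ACAAAG, letters that match the consensus of Sox factors, lies in the Mag run and in 11.6% of them. These are descriptions of letters, not of binding.

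Positional identity differed between the tissues. Most Hox genes tested were dim in brain and above background in spinal cord, and most forebrain factors tested were lower in spinal cord, where 5 of 12 were dim. Of 39 Hox genes listed, 22 were named on the array and 19 were tested, while Hoxb13, Hoxd1 and Hoxd11 were dim in both proliferative groups and stayed untested. Of the 19, 18 were dim on the brain arrays and were let through the filter on low values by spinal cord arrays alone, so their direction was set by the filter and their values are given as a description. Hoxa9, a factor of the trunk, read 0.30, 0.36 and 0.30 on the brain arrays and 10.75, 10.94 and 10.91 on the spinal cord arrays, at least 27.1-fold higher. Hoxa5, which patterns the cervical and upper thoracic levels, read 1.87, 2.39 and 1.58 against 11.20, 11.52 and 11.41, at least 38.5-fold. Hoxb2, a hindbrain gene whose expression reaches into the cord, was at least 22.6-fold and Hoxc8, a thoracic gene, at least 7.27-fold higher. In each of these genes every cord array lay above every brain array. Among the cofactors that bind DNA beside Hox proteins and the factors upstream of them, 1 of 10 was higher and 2 lower. These shares, 10% and 20%, did not exceed the 21.2% and 22.8% over all genes tested, so the counts are descriptions. Meis1 rose 1.83-fold in spinal cord (adjusted p = 0.00015), Meis2 was 2.84-fold lower (adjusted p = 2.7e-05), and Pbx3 was not called (log2 difference 0.01, adjusted p = 0.96). Pbx2 was 1.34-fold lower, with its call lost without brain replicate 3 (adjusted p = 0.099), spinal cord replicate 2 (adjusted p = 0.054) or spinal cord replicate 3 (adjusted p = 0.078).

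Forebrain transcription factors were lower in 8 of 12 tested cases and higher in 1 (4 through brain alone, and 4 lower with a filter at the 60th percentile), with a median log2 difference of -0.82 with dim groups at the floor, where all genes had -0.03. Lhx2, a selector of cortex and eye, read 12.17, 12.24 and 12.11 in brain and 7.40, 6.06 and 4.67 in spinal cord (adjusted p = 2.8e-05), and without spinal cord replicate 3 the fold against the measured mean was 43.5 in place of 70.0. Emx2, a factor of the dorsal forebrain, read 10.29, 10.28 and 10.47 against 4.76, 3.25 and 3.79, at least 15.9-fold lower (adjusted p = 7.7e-05). Dlx1, a factor of ventral forebrain and its GABA neurons, was 21.9-fold lower (13.6-fold against the floor, and at least 13.8-fold without spinal cord replicate 1, where the cord group became dim), and its relative Dlx5 at least 3.35-fold. Brain arrays lay above all cord arrays in these 4 genes. Emx1 was at least 2.21-fold lower, and the call was lost without brain replicate 1 (adjusted p = 0.057) or spinal cord replicate 3 (adjusted p = 0.056). The member higher in spinal cord was Nr2f2, a nuclear receptor of posterior and ventral forebrain, at 1.44-fold, which was not called after median centring, and another of its probe sets was not called. Six3, Otx2, Tbr1 and Eomes were dim in both tissues and were not tested.

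Factors that divide the neural tube from dorsal to ventral were higher in 7 of 15 tested cases and lower in 2 (2 through cord alone). Nkx2-2, a factor of the ventral progenitor domain that also acts in oligodendrocyte precursors, read 8.19, 9.39 and 8.81 in brain and 11.88, 12.04 and 12.05 in spinal cord, 9.13-fold higher (adjusted p = 9e-08). Irx1, an Iroquois homeobox factor, was 11.6-fold higher, from 6.59, 6.18 and 6.66 to 10.16, 9.92 and 9.96. Pax6, a progenitor factor with a strong role in the cortex, was 5.62-fold lower (adjusted p = 3.1e-08). Foxp2 was at least 2.50-fold lower in spinal cord, and in these 4 genes the tissues did not overlap. Olig2, a factor of motor neuron and oligodendrocyte progenitors, was not called (log2 difference 0.77, adjusted p = 0.34), nor was Zic1, a dorsal factor (log2 difference 0.27, adjusted p = 0.41). Irx5 (log2 difference 1.96, adjusted p = 0.064) was called only without brain replicate 2 (adjusted p = 0.0034).

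**Figure D2:**
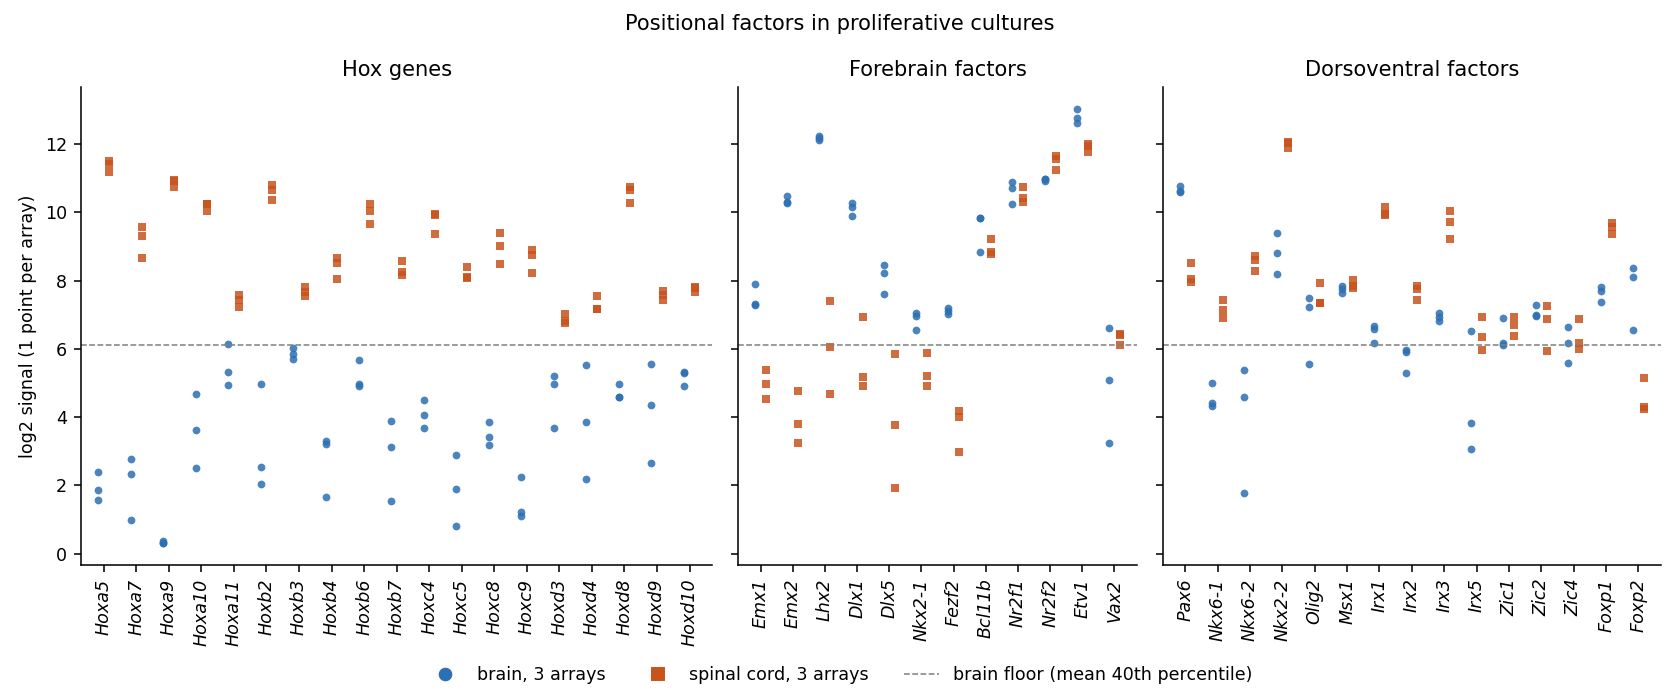
Log2 signals of the tested Hox genes, forebrain factors and dorsoventral factors, 1 point per array, circles for the 3 brain and squares for the 3 spinal cord arrays. The dashed line marks the brain floor of 6.11. All cord points of the Hox genes lie above all brain points, Lhx2, Emx2 and Dlx1 show the reverse, and Olig2 and Zic1 overlap.

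The label of both groups as neural stem cells was set against progenitor markers, and most of these were above background in both tissues, with lower levels of some in spinal cord. Hes5, a Notch target of NSCs, was dim in both, as was Sox1, an early neural factor that was not tested. Of 18 stem and progenitor markers tested, 7 were lower and 3 higher in spinal cord, with a median log2 difference of -0.38. These shares were 38.89% lower and 16.67% higher, against 22.8% and 21.2% over all genes tested. After median centring 10 were lower and 0 higher. Sox2, a factor that maintains NSCs, read 12.65, 12.53 and 12.69 in brain and 12.78, 12.80 and 12.86 in spinal cord and was not called (log2 difference 0.19, adjusted p = 0.068). Nes, the progenitor filament nestin, was 3.13-fold lower, from 10.93, 10.81 and 11.39 to 9.68, 9.34 and 9.15 (adjusted p = 6.2e-06). Cd24, a surface protein of neural progenitors and young neurons, was 4.35-fold lower, Cdh2, N-cadherin, 1.61-fold, and Fabp7, the radial glial fatty acid binding protein, 1.38-fold. Neither Nes nor Cd24 overlapped between the tissues. The 3 called higher were Notch1 (1.33-fold), Tnc (1.35-fold) and Melk (1.47-fold), none of which was called after median centring or kept its call in every leave-one-out fit. Without brain replicate 1 the adjusted p was 0.095 for Notch1, 0.11 for Tnc and 0.093 for Melk, and it also passed 0.05 for Notch1 without brain replicate 2 and spinal cord replicates 2 and 3, for Tnc without brain replicate 2 and spinal cord replicate 2, and for Melk without brain replicates 2 and 3 and spinal cord replicate 1.

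Most markers of the oligodendrocyte lineage were higher in spinal cord, from precursors to myelin. Among 15 oligodendrocyte precursor markers 13 were higher and 0 lower (median log2 difference 3.05 with dim groups at the floor). Sox10, the factor of the whole lineage, read 6.05, 7.55 and 6.67 in brain and 10.62, 10.83 and 10.79 in spinal cord, 15.9-fold higher (adjusted p = 1.2e-07). Cspg4, the NG2 proteoglycan of precursors, was 12.8-fold higher, from 6.37, 5.81 and 6.46 to 9.51, 10.14 and 10.03. C1ql1, a secreted C1q-like protein, was 14.7-fold (14.1-fold against the floor), Bcas1, found in cells starting to myelinate, 11-fold, and Tnr, a matrix glycoprotein of these cells, at least 9.43-fold higher. Pdgfra, the receptor through which precursors divide, was 3.54-fold higher and reached 10.48 to 11.44 in brain. No brain array overlapped the cord arrays in these 6 genes, a description, as 50.5% of all genes tested did not overlap. Olig2, described above and also a member of this list, was not called.

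Of 22 mature oligodendrocyte markers 20 were higher and 0 lower (median 4.03 as fitted, 2.62 with the 8 that were dim in brain at the floor). Mag, the myelin-associated glycoprotein, read 6.83, 7.75 and 6.16 in brain and 11.93, 11.48 and 11.70 in spinal cord, 27.6-fold higher (adjusted p = 3.3e-08). Mbp, myelin basic protein, read 9.43, 11.10 and 9.23 against 14.18, 14.17 and 14.22, 19.3-fold higher, and its other probe sets 56.0-fold and 6.52-fold. Ugt8, which makes the myelin lipid galactocerebroside, was 23.4-fold and Cldn11, the tight junction protein of myelin, 22.8-fold higher. Brain replicate 2 was the highest brain array in each of these genes: without it the fold was 29.0 for Mbp, 35.3 for Cldn11 and at least 6.03 for Mal, a lipid raft protein of myelin, which was 10.1-fold higher with it (5.78-fold against the floor). The mean log2 signal of the 22 markers was 6.52, 7.57 and 6.54 on the brain arrays and 10.47 to 10.67 on the spinal cord arrays.

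Microglial and macrophage genes were also higher in spinal cord. All 18 tested markers were called higher, 10 of them dim in brain and 2 through cord alone (median 2.33 with dim groups at the floor). With a filter at the 60th percentile 11 were called higher. Ctss, a lysosomal protease of microglia, read 5.23, 6.50 and 5.27 in brain and 10.43, 9.64 and 10.05 in spinal cord, 20.7-fold higher (15.2-fold against the floor, adjusted p = 4.7e-07). The complement chain C1qa was 14.9-fold higher, from 5.60, 6.42 and 5.30 to 10.09, 9.42 and 9.51 (11.9-fold against the floor), and Lyz2, lysozyme, 12.7-fold. Csf1r, the receptor that keeps microglia alive, was at least 3.65-fold and Aif1, the calcium-binding protein Iba1, at least 3.47-fold higher (at least 2.16-fold without spinal cord replicate 1). Every cord array was above every brain array for these 5 genes. A further 8 listed markers on the array were not tested, and 7 of them were dim in both tissues, including Itgam, Cx3cr1, P2ry12 and Trem2, which also mark microglia. The mean log2 signal of the 18 markers ran from 5.40 to 5.77 on the brain arrays and from 8.33 to 9.23 on the spinal cord arrays, highest on spinal cord replicate 1. Their part in the results on inflammatory, interferon and proliferation genes was not tested.

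Genes of fibroblasts and meninges were higher in 26 of 33 tested cases and lower in 0 (median 2.95 as fitted, 1.35 with dim groups at the floor). Of the 33, 8 were let through the filter by spinal cord arrays alone. Lum, the collagen-binding proteoglycan lumican, read 3.75, 5.75 and 5.19 in brain and 11.61, 11.61 and 11.65 in spinal cord, at least 45.9-fold higher (adjusted p = 1.4e-08). Postn, the matrix protein periostin, read 4.72, 5.94 and 6.39 against 9.28, 12.51 and 12.49, 53.4-fold higher against the measured brain mean, 39.9-fold against the floor (1 brain array was above its percentile) and 112-fold against the measured mean without spinal cord replicate 1. Bgn, the proteoglycan biglycan, was 47.5-fold higher (29.6-fold against the floor), a value that ran from 17.3 without brain replicate 1 to 79.9 without brain replicate 2 and was 77.6 without brain replicate 3. Col1a1, a chain of type I collagen, was 24.3-fold (19.2-fold against the floor), Igf2, a growth factor of meninges and fetal tissue, 11.1-fold, and Crabp2, a retinoic acid carrier, 2.28-fold higher. In these genes the tissues did not overlap. Pdgfrb, the receptor of pericytes and fibroblasts, was at least 1.47-fold higher with overlap, and lost its call without brain replicate 1 (adjusted p = 0.099) or spinal cord replicate 2 or 3 (adjusted p = 0.12 and 0.083). Aldh1a2, which makes retinoic acid in meninges, was 1.95-fold higher (1.71-fold against the floor) and lost its call without brain replicate 1 or 3 (adjusted p = 0.15 for each) or without spinal cord replicate 2 or 3 (adjusted p = 0.063 and 0.16). The mean log2 signal of the list was 5.82 to 6.34 on the brain arrays and 8.40, 9.46 and 9.21 on the spinal cord arrays, where replicate 1 was lowest.

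Mural and smooth muscle markers were higher in 5 and lower in 1 of 11 (2 through cord and 1 through brain alone), and Acta2, smooth muscle actin, was not called (log2 difference 0.19, adjusted p = 0.75). Anpep, a peptidase of pericytes and fibroblasts, was at least 11.4-fold higher. Endothelial markers were higher in 2 (1 after median centring) and lower in 3 of 10 (1 through each tissue alone), and 9 of the 10 untested ones on the array, including Pecam1 and Cldn5, were dim in both tissues. The endothelial markers lower in spinal cord were Cd93, Sox7 and Plvap. The endothelial shares, 20% higher and 30% lower, lay near the 21.2% and 22.8% over all genes tested, so these counts are descriptions. Cd93, a membrane lectin, read 12.69, 12.52 and 13.12 in brain and 11.54, 10.06 and 9.49 in spinal cord, 5.32-fold lower (8.01-fold without spinal cord replicate 1). Sox7, a factor of vessels, was 4.38-fold and Plvap, a protein of fenestrated vessels, at least 7.23-fold lower. Eng, a TGF-beta co-receptor, was at least 2.59-fold higher. Markers of Schwann cells and neural crest were higher in 7 and lower in 3 of 13, with Ngfr, the p75 neurotrophin receptor, 4.52-fold higher and Pmp22, a peripheral myelin protein, 1.81-fold lower. Sox10, Mal and S100b of that list are shared with the glial lists.

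Astrocyte markers went both ways, 12 higher and 6 lower of 25 (1 through cord and 2 through brain alone). The count of higher ones rested on spinal cord replicates 2 and 3, as it was 6 and 7 without each. Tril, a Toll-like receptor accessory protein, read 7.21, 7.46 and 6.82 in brain and 10.73, 11.63 and 11.63 in spinal cord, 18.0-fold higher (adjusted p = 8.2e-09). S100b, a calcium-binding protein of astrocytes and oligodendrocytes, was 5.71-fold, Aldoc, a glycolytic enzyme of astrocytes, 3.24-fold, and Glul, glutamine synthetase, 2.76-fold higher. Among those lower, Gja1, connexin 43, fell from 13.96, 13.82 and 14.05 in brain to 12.56, 13.24 and 12.59 in spinal cord, 2.22-fold, and Aldh1l1, a folate enzyme of astrocytes, was 2.91-fold lower. Slc1a3, the glutamate transporter GLAST, was 3.28-fold lower by its brightest probe set and 4.25-fold by another, but 3.94-fold higher by the remaining probe set, so its direction is uncertain. Gfap, the astrocyte filament, read 12.02, 11.35 and 12.11 in brain and 11.78, 13.28 and 13.34 in spinal cord, where replicate 1 lay within the brain range. Gfap was called 1.96-fold higher (adjusted p = 0.027), and the call was lost without brain replicate 2 or spinal cord replicate 2 (adjusted p = 0.12) or spinal cord replicate 3 (adjusted p = 0.13).

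Neuron markers were lower in 11 (17 after median centring) and higher in 7 of 38 tested cases (2 through brain alone). These shares, 29% lower and 18.4% higher, lay near those over all genes tested, 22.8% and 21.2%, so the counts are descriptions. GABA neuron genes were lower in 5 and higher in 1 of 9 (3 through brain alone), with 0 higher after median centring and 3 lower with a filter at the 60th percentile. Gad2, which makes the transmitter GABA, read 9.73, 9.57 and 9.10 in brain and 5.46, 5.37 and 2.57 in spinal cord, at least 8.62-fold lower (adjusted p = 0.00033). Gad1 was 4.19-fold lower, though another of its probe sets was not called, and Slc32a1, the vesicular GABA transporter, at least 3.54-fold. Neurod1, a factor of new neurons, was at least 5.26-fold, Snap25, which helps vesicles fuse at synapses, 3.82-fold, Stmn2, a tubulin-binding protein of growing axons, 3.61-fold, and Elavl2, a neuronal RNA-binding protein, 3.54-fold lower. The tissues did not overlap for these 7 genes. Dcx, a microtubule protein of migrating young neurons, was not called (log2 difference -0.10, adjusted p = 0.78). Tubb3, neuronal tubulin, was 1.67-fold lower, with the call lost without brain replicate 1 (adjusted p = 0.071) or spinal cord replicate 3 (adjusted p = 0.057). Higher in spinal cord were Ncam1, a cell adhesion molecule, at 5.54-fold (another probe set was not called), and Gap43, a growth cone protein, at 2.20-fold. Of 9 tested genes of glutamate, glycine, motor and sensory neurons 2 were higher and 2 lower, 22.22% each way, with a median log2 difference of 0.95. These counts, too, are descriptions, and the 2 lower genes were Slc17a6 and Penk. Slc17a6, the vesicular glutamate transporter of cord and midbrain neurons, was 3.18-fold lower (3.10-fold against the floor, call lost without brain replicate 1, adjusted p = 0.055, or spinal cord replicate 2, adjusted p = 0.061). Penk, the enkephalin precursor, was 2.42-fold lower. Of 12 ependymal and motile cilia genes 5 were lower and 1 higher (2 through brain alone), and 3 lower without brain replicate 1 or spinal cord replicate 3. Tppp3, a tubulin-binding protein, was 4.43-fold and Mlf1 4.96-fold lower, while Foxj1, the master factor of motile cilia, was not called (log2 difference -0.25, adjusted p = 0.61).

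**Figure D3:**
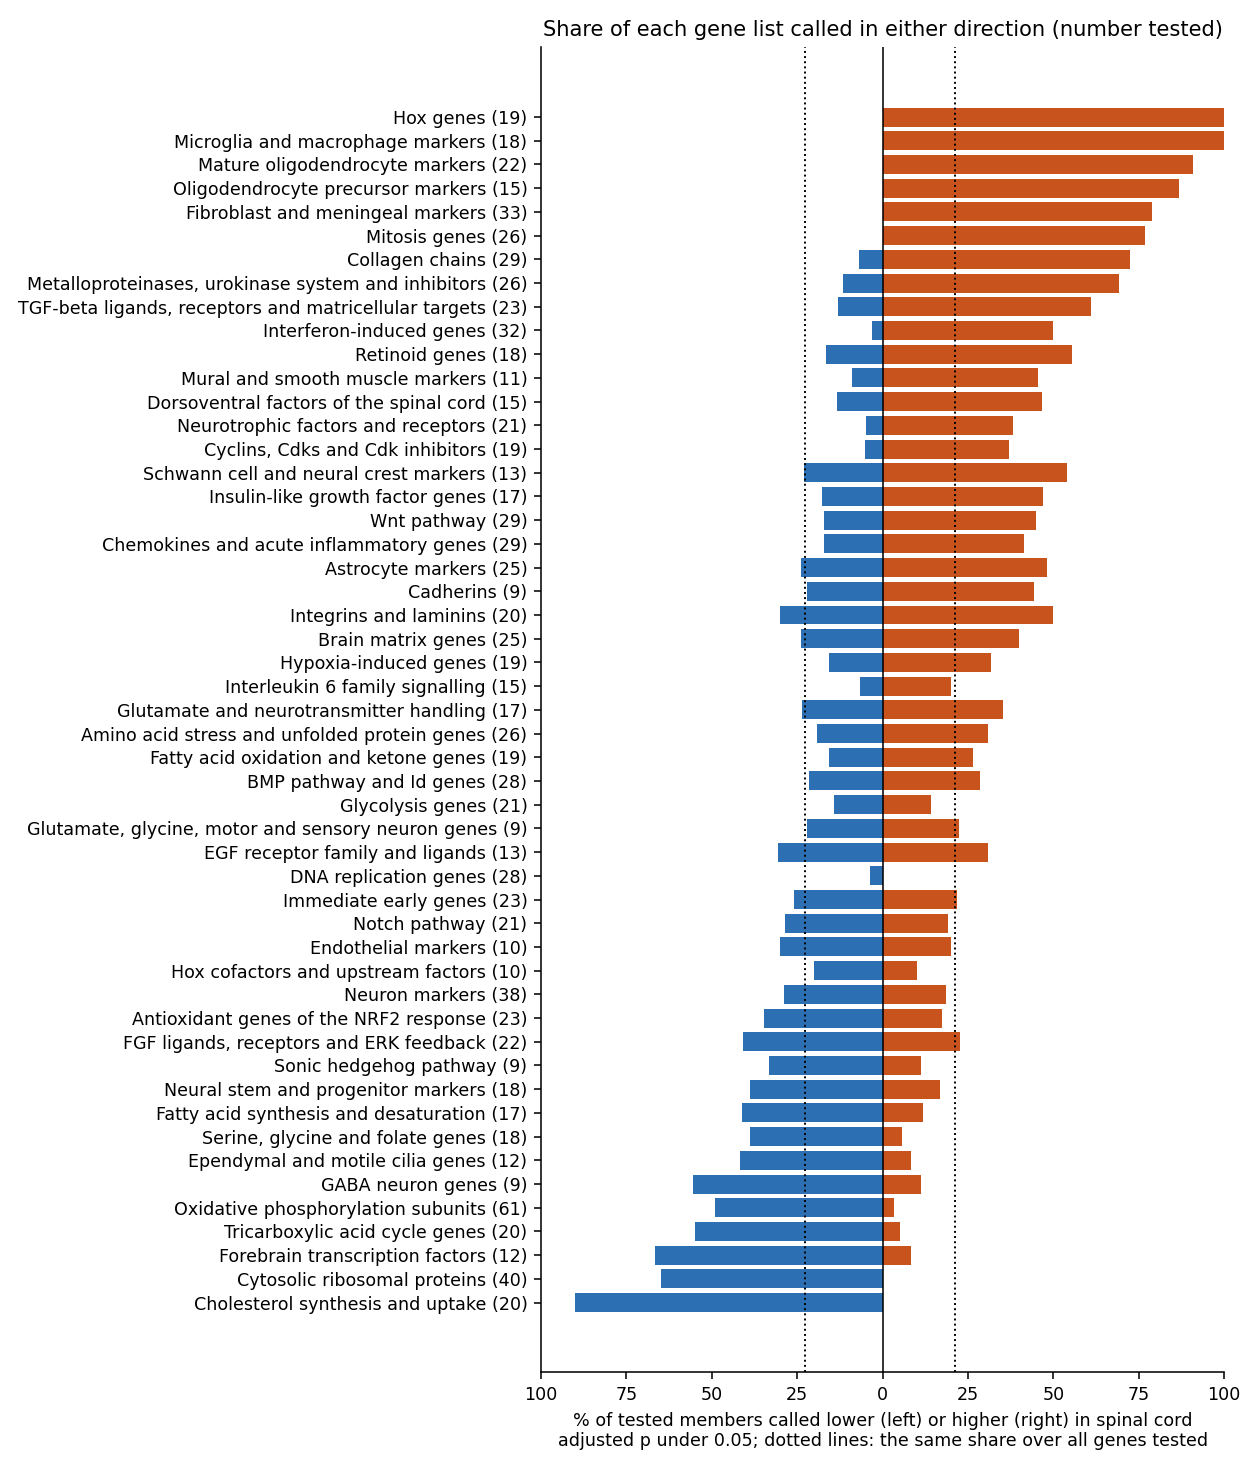
Bars give the percentage of tested members of each list called lower (left) or higher (right) in spinal cord, for lists with 9 or more tested members, whose number stands in parentheses. Dotted lines mark the shares over all genes tested, 22.8% lower and 21.2% higher. Hox and microglial lists reach 100% higher, though 18 Hox genes entered only through cord arrays, and the cholesterol list has the largest share lower.

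Mitotic genes were higher in spinal cord, while genes of DNA replication were called in 1 case, a count that depended on spinal cord replicate 1. Of 26 mitosis genes 20 were higher and 0 lower (median log2 difference 0.82), and 13 after median centring. Mki67, a protein of all cycling cells, read 10.11, 10.01 and 10.46 in brain and 11.90, 10.99 and 11.04 in spinal cord, 2.17-fold higher (adjusted p = 0.00076). Top2a, topoisomerase II, was 2.43-fold, Ccnb2, cyclin B2, 2.73-fold, and Cenpe, a kinetochore motor, 2.60-fold higher. No array overlapped in these 4 genes. The mitosis mean was 9.02 to 9.73 in brain and 10.77, 9.90 and 10.02 in spinal cord, and without spinal cord replicate 1 the count higher was 16.

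Of 28 DNA replication genes 0 were higher and 1 was lower with all arrays, 6 were lower after median centring, and 18 were lower without spinal cord replicate 1, where 0 were higher. Mcm2, a subunit of the replicative helicase, read 10.45, 10.20 and 10.16 in brain and 10.35, 9.58 and 9.64 in spinal cord, so replicate 1 lay within the brain range. Its log2 difference was -0.41 with all arrays (adjusted p = 0.082) and -0.66 without that array (adjusted p = 0.00088). Pcna, the sliding clamp, showed the same shift, from -0.27 (adjusted p = 0.18) to -0.49 (adjusted p = 0.0023). The gene called lower was Hells, a chromatin helicase, at 1.94-fold, with adjusted p of 0.11 and 0.13 without brain replicates 1 and 2 and 0.17 and 0.15 without spinal cord replicates 2 and 3. The list's mean was 10.11, 9.99 and 9.78 in brain and 10.41, 9.40 and 9.52 in spinal cord.

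Among cyclins, Cdks and their inhibitors 7 were higher and 1 lower of 19 (4 and 3 after median centring). Cdkn1c, the imprinted Cdk inhibitor p57, read 7.85, 8.20 and 7.96 in brain and 11.66, 12.05 and 12.17 in spinal cord, 15.5-fold higher (adjusted p = 2e-10). H19, an imprinted non-coding RNA next to Igf2, was 17.2-fold higher (32.4-fold without brain replicate 2, its highest brain array). E2f2, a factor of S phase entry, was 4.03-fold higher and Ccnd2, cyclin D2, 1.49-fold lower. Ccnd1, cyclin D1, was not called by its brightest probe set (log2 difference -0.20, adjusted p = 0.12). Its other probe sets were called lower, 1.20-fold (adjusted p = 0.041) and 1.24-fold (adjusted p = 0.025).

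**Figure D4:**
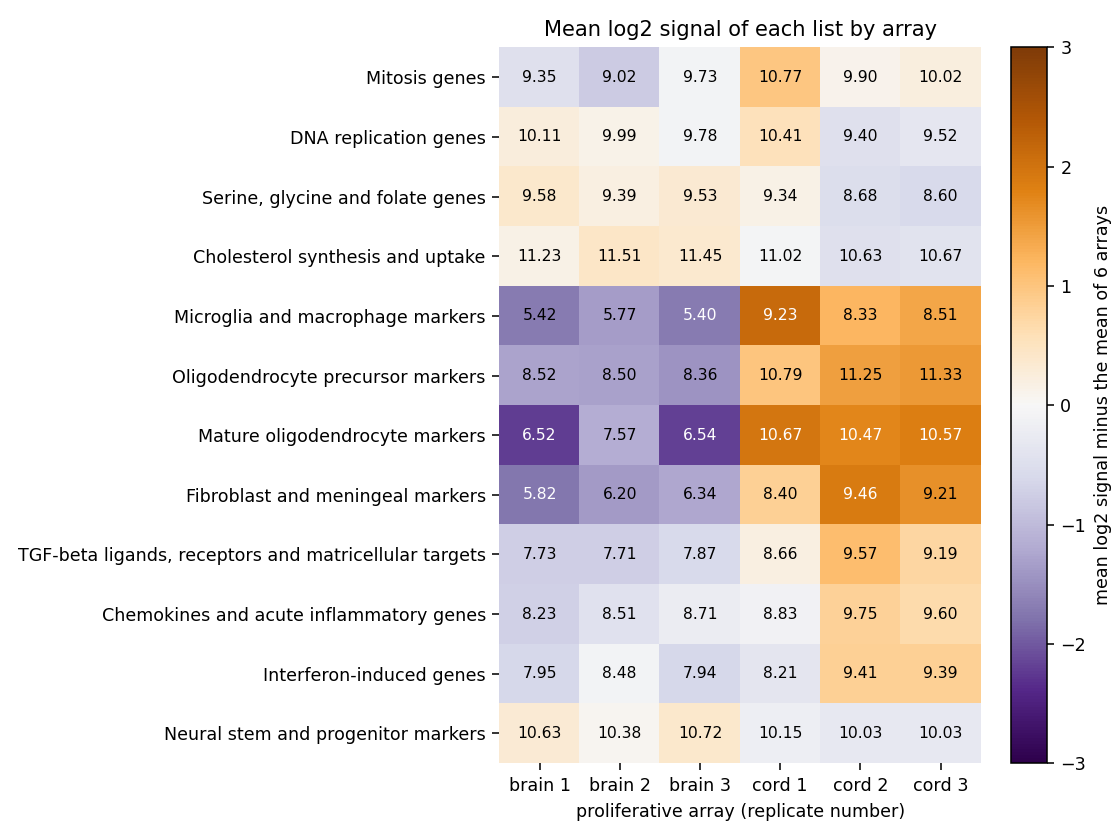
Numbers are the mean log2 signal of each list on each of the 6 arrays (columns: brain and spinal cord replicates 1 to 3), and colours show the difference from the mean of the 6. Cord replicate 1 is the highest cord array for mitosis (10.77), replication (10.41) and microglial lists (9.23) and the lowest for fibroblast (8.40), TGF-beta (8.66) and interferon lists (8.21).

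Within most signalling lists some members were higher and others lower in spinal cord. Over all genes tested 21.2% were called higher and 22.8% lower. The shares were 19.05% and 28.57% of Notch genes, 28.57% and 21.43% of BMP genes and 21.74% and 26.09% of immediate early genes. Counts near the shares of all genes are descriptions. In the EGF receptor family, through which NSCs are commonly kept dividing, 4 of 13 genes were higher and 4 lower. Hbegf, the heparin-binding ligand, read 12.65, 13.10 and 12.87 in brain and 10.57, 8.74 and 8.53 in spinal cord, 12.1-fold lower (adjusted p = 1.1e-05), and 18.8-fold without spinal cord replicate 1. Tgfa, another ligand, was the reverse, 8.05, 8.60 and 8.53 against 11.15, 11.59 and 11.61, 8.32-fold higher (adjusted p = 4.5e-08), and Ereg, epiregulin, was 6.18-fold higher. Areg, amphiregulin, was not called (log2 difference 0.98, adjusted p = 0.12) but was 3.02-fold higher without spinal cord replicate 1 (adjusted p = 0.0033). The receptors Egfr and Erbb2 were 3.22-fold and 1.73-fold lower, whereas the receptor Erbb3 was 5.23-fold higher (3.41-fold against the floor, adjusted p = 0.015), a call lost without brain replicate 3 (adjusted p = 0.065). Lrig1, which dampens the receptor, was 3.10-fold lower and Errfi1, a feedback inhibitor, 1.83-fold higher. Except for Areg, brain and cord arrays did not overlap in these genes.

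Of 22 FGF ligands, receptors and feedback genes 5 were higher and 9 lower (5 without brain replicate 3), with 3 of the 22 through cord alone. Fgf10, a mesenchymal ligand, was at least 4.61-fold higher (at least 7.69-fold without spinal cord replicate 1) and Fgf7 at least 1.36-fold. Fgf13, an intracellular family member of neurons, was 3.07-fold lower. The receptors Fgfr1, Fgfr2 and Fgfr3 were not called with all arrays (log2 differences -0.20, 0.22 and 0.12). Fgfr1 was called lower without spinal cord replicate 2 (adjusted p = 0.033) and Fgfr2 higher without spinal cord replicate 3 (adjusted p = 0.036). Spry1, a feedback inhibitor, was 2.33-fold higher. Its relative Spry2 was 1.35-fold lower (adjusted p = 0.014), a call lost without brain replicate 2 (adjusted p = 0.066) or spinal cord replicate 2 (adjusted p = 0.056). Fosl1, a factor induced by ERK, was 5.29-fold lower, from 11.61, 11.57 and 11.61 to 9.66, 9.32 and 8.60. Notch genes were higher in 4 (2 after median centring) and lower in 6 of 21 (3 lower without spinal cord replicate 3), with 1 through cord and 2 through brain alone. Hey1, a Notch target, was 3.95-fold, Jag1, a ligand, 3.32-fold, and Dll4, another ligand, 5.55-fold lower (4.04-fold against the floor), while Rbpj, the pathway's DNA-binding protein, was 1.36-fold higher (another probe set was not called). Genes of the Sonic hedgehog pathway were lower in 3 and higher in 1 of 9: Smo, the signal transducer, was 2.46-fold, Gli2, a transcription factor of the pathway, 3.29-fold and Dhh, a ligand, 5.09-fold lower, and Boc, a co-receptor, 3.74-fold higher (6.19-fold without spinal cord replicate 1). Gli1 was dim in both tissues and was not tested.

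Wnt genes were higher in 13 and lower in 5 of 29 (3 through cord alone). The secreted inhibitors differed in direction: Sfrp1 read 11.86, 11.67 and 12.10 in brain and 9.20, 9.74 and 8.99 in spinal cord, 5.92-fold lower (adjusted p = 9e-08), whereas Sfrp2 was 4.68-fold and Sfrp4 9.67-fold higher. Wnt5a, a ligand of the branch without beta-catenin, was 2.11-fold higher, and Axin2, a target of the beta-catenin branch, was not called (log2 difference -0.29, adjusted p = 0.45). BMP genes were higher in 8 and lower in 6 of 28 (3 through cord alone), and the count higher was 13 without spinal cord replicate 1, 4 without replicate 2 and 5 without replicate 3. Bmp4 read 5.76, 5.94 and 4.80 against 8.34, 8.46 and 8.84, at least 5.43-fold higher (adjusted p = 4.4e-07), Bmp7 was 2.93-fold higher, and Grem1, a BMP antagonist, at least 34.5-fold (at least 78.8-fold without spinal cord replicate 1 and 20.5-fold without spinal cord replicate 2). The intracellular targets were lower: Id1 2.72-fold, Id4 2.22-fold, Id3 1.73-fold and the mediator Smad9 4.28-fold. The BMP ligands, Grem1 and the targets named here did not overlap between tissues.

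TGF-beta ligands, receptors and matricellular targets were higher in 14 and lower in 3 of 23 (5 through cord alone). Inhba, the activin A subunit, read 7.99, 7.81 and 8.41 in brain and 10.43, 12.54 and 11.72 in spinal cord, 11.2-fold higher (adjusted p = 8.3e-06), while Inhbb, the activin B subunit, read 10.60, 10.30 and 10.90 against 7.83, 8.15 and 7.60, 6.70-fold lower (adjusted p = 1e-07). Thbs2, a matricellular protein, was 11.6-fold and Tgfb2, a ligand, 3.39-fold higher, and Ltbp1, which stores the ligand in matrix, was 3.44-fold lower. Ccn2, a connective tissue growth factor, was 5.47-fold higher, 9.55-fold without spinal cord replicate 1 and 3.62-fold without spinal cord replicate 2. The list's mean was 7.71 to 7.87 in brain and 8.66, 9.57 and 9.19 in spinal cord.

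Retinoid genes were higher in 10 and lower in 3 of 18. Stra6, the membrane receptor for retinol transport, was 8.15-fold higher, from 5.25, 6.53 and 6.19 to 9.75, 8.64 and 8.66 (7.50-fold against the floor, and 1 of its 3 other probe sets was not called). Cyp26b1, which degrades retinoic acid, was 5.34-fold and the receptor Rarb, itself a target, 3.22-fold higher. Aldh1a3, which makes retinoic acid, was 4.08-fold lower. Crabp1, a carrier, was 2.63-fold lower (adjusted p = 0.029), a call lost without any 1 of the brain arrays or spinal cord replicate 2 or 3 (adjusted p of 0.056 to 0.093). Insulin-like growth factor genes were higher in 8 and lower in 3 of 17. Igfbp5 read 8.93, 9.20 and 8.80 in brain and 12.03, 13.66 and 13.31 in spinal cord, 16.3-fold higher, and its relative Igfbp3 14.02, 14.17 and 14.40 against 11.92, 11.56 and 11.43, 5.88-fold lower (adjusted p = 1.6e-08). Both bind and store the growth factors. Igfbp2 was 2.23-fold and Irs2, an adaptor of the receptor, 2.01-fold lower. Of 21 neurotrophic genes 8 were higher and 1 lower (3 lower after median centring). Bdnf was 5.26-fold higher with overlap (8.35-fold without spinal cord replicate 1), and Kitlg, stem cell factor, 2.0-fold lower.

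Interferon-induced genes were higher in 16 and lower in 1 of 32 (2 lower after median centring). The count depended on single arrays: it was 26 without spinal cord replicate 1, and 10 without spinal cord replicate 2, spinal cord replicate 3 or brain replicate 1. Ifit2, an antiviral protein, read 6.15, 6.31 and 5.99 in brain and 8.36, 9.46 and 9.52 in spinal cord, 7.80-fold higher (adjusted p = 9.2e-07). Dhx58, a sensor of viral RNA, was 4.33-fold (3.51-fold against the floor) and Ifit3 at least 2.96-fold higher. Isg15, a ubiquitin-like protein, was not called (log2 difference 0.69, adjusted p = 0.16) and was 2.36-fold higher without spinal cord replicate 1 (adjusted p = 0.00076). Gbp2, a GTPase of the response, was 2.55-fold lower. The list's mean was 7.95, 8.48 and 7.94 in brain and 8.21, 9.41 and 9.39 in spinal cord, so that replicate 1 lay within the brain range.

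Chemokines and acute inflammatory genes were higher in 12 and lower in 5 of 29 (3 lower without brain replicate 3, 8 without spinal cord replicate 2 and 9 after median centring), with 4 of the 29 through cord alone and a median log2 difference of 0.02 with dim groups at the floor. Cxcl13, a chemokine that draws B cells, was at least 39.6-fold higher (at least 83.6-fold without spinal cord replicate 1 and 22.5-fold without spinal cord replicate 2). Il33, an alarmin found in oligodendrocytes and astrocytes, read 7.07, 9.06 and 7.99 in brain and 11.87, 12.45 and 12.44 in spinal cord, 18.5-fold higher (adjusted p = 1.1e-06). Ptgs2, the inducible prostaglandin enzyme, was 14.9-fold higher (22.9-fold without spinal cord replicate 1), and Saa3, an acute phase protein, at least 9.04-fold. Ccl2, bright in both tissues at 13.30 to 14.28, was not called (log2 difference -0.33, adjusted p = 0.11), though it was called lower without brain replicate 2 (adjusted p = 0.037) or spinal cord replicate 2 (adjusted p = 0.027). Vcam1, an adhesion molecule, was 1.78-fold and the NF-kappaB subunits Nfkb2 and Relb 1.69-fold lower each. Il6, a cytokine, was at least 5.34-fold higher (at least 11-fold without spinal cord replicate 1 and 3.32-fold without spinal cord replicate 2), and Clcf1, of the same family, 5.89-fold lower. Immediate early genes, induced within minutes by growth factors, were higher in 5 and lower in 6 of 23. Fos was 2.39-fold and Nr4a1 2.93-fold higher, Jun 1.86-fold and Ier5 2.91-fold lower, with no overlap in these 4, and another probe set of Ier5 was not called.

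Extracellular matrix genes were mostly higher in spinal cord. Of 29 collagen chains 21 were higher and 2 lower (1 through cord and 2 through brain alone, median 1.44 with dim groups at the floor). Col8a1, a chain of vessel and meningeal matrix, read 2.96, 3.67 and 4.35 in brain and 10.30, 11.60 and 11.09 in spinal cord, at least 29.7-fold higher (adjusted p = 3.5e-07). Col4a1, of basement membranes, was 4.28-fold higher, and Col4a5 and Col4a6 were the pair lower, Col4a5 by 1.98-fold. Metalloproteinases, the urokinase system and their inhibitors were higher in 18 and lower in 3 of 26. Serpinb2, an inhibitor of urokinase, read 7.28, 8.28 and 8.10 against 11.30, 13.61 and 13.23, 28.3-fold higher (46.3-fold without spinal cord replicate 1), while Plau, urokinase itself, was 3.90-fold lower. Integrins and laminins were higher in 10 and lower in 6 of 20 (4 through cord alone): Itga8 was 21.2-fold and Lama4 8.56-fold higher, and Itga6, the laminin receptor of NSCs, 2.23-fold and Lama5 4.75-fold lower. Among matrix genes typical of brain 10 were higher and 6 lower of 25 (2 through cord alone), with Bcan, brevican, 12.3-fold higher, from 7.35, 7.19 and 7.27 to 10.72, 11.02 and 10.94, and Ncan, neurocan, 2.63-fold lower. Has2, which makes hyaluronan, was 2.90-fold lower. Col4a6 has no fold because its mean in brain lay under the spinal cord floor. In none of these matrix genes did brain and cord arrays overlap. Another probe set of Itga6 and of Col4a6 was not called. The fibroblast markers described above moved with these genes, at a mean of 5.82 to 6.34 in brain and 8.40 to 9.46 in spinal cord, and their part in the result was not tested. Cdh20, a cadherin, was 9.36-fold higher (4.41-fold against the floor), at least 4.60-fold without brain replicate 2 and 4.73-fold without brain replicate 3.

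Of 12 lists of metabolic and ribosomal genes, those of cholesterol, ribosomal proteins, the tricarboxylic acid cycle and oxidative phosphorylation had the largest shares of members called lower in spinal cord with the deposited scaling. In the other 8 lists 1 to 8 members were higher and 3 to 8 lower. Over all genes tested 21.2% were called higher and 22.8% lower. The shares higher and lower were 14.29% each for glycolysis, 31.58% and 15.79% for hypoxia, and 35.29% and 23.53% for transmitter handling. Counts near the shares of all genes are descriptions. Cholesterol synthesis and uptake had the most even shift, with 18 of 20 lower and 0 higher (median log2 difference -0.56), and 13 to 19 lower when 1 array was left out. Fdps, farnesyl diphosphate synthase, read 13.27, 13.61 and 13.58 in brain and 12.71, 12.33 and 12.36 in spinal cord, 2.03-fold lower (adjusted p = 3.7e-05). Tm7sf2, a sterol reductase, was 2.33-fold and Sqle, squalene epoxidase, 1.39-fold lower, without overlap. Fatty acid synthesis genes were lower in 7 and higher in 2 of 17, with Scd, stearoyl-CoA desaturase, 1.79-fold and Elovl2, an elongase, 2.34-fold lower, and Dgat2, which makes triglyceride, 3.06-fold higher. Fasn was not called (log2 difference -0.13, adjusted p = 0.32).

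Of 61 subunits of oxidative phosphorylation 30 were lower and 2 higher (0 after median centring, median -0.25), and of 20 genes of the tricarboxylic acid cycle 11 were lower and 1 higher (median -0.28), 7 lower without spinal cord replicate 2. After median centring the counts lower were 38 and 14, and after quantile normalization 23 and 9, where 4 of the oxidative phosphorylation subunits were higher. Of these subunits 20 were lower without spinal cord replicate 2. Cyc1, cytochrome c1, was 1.60-fold, Uqcrc1, a core subunit of the same complex, 1.57-fold, and Idh3b, of mitochondrial isocitrate dehydrogenase, 1.74-fold lower. Ndufb3 and Cox8a were higher, 1.22-fold and 1.20-fold, and neither kept its call without spinal cord replicate 2 (adjusted p = 0.054 and 0.06) or 3 (adjusted p = 0.057 and 0.059), or without brain replicate 2 (adjusted p = 0.11 and 0.07), nor Ndufb3 without brain replicate 1 or spinal cord replicate 1 (adjusted p = 0.086 and 0.051). Cytosolic ribosomal proteins were lower in 26 of 40 and higher in 0 (median -0.31), but in 9 of 40 after quantile normalization, and in 36 of 40 after median centring, so this count changed with array scaling. Rpl14 was 1.52-fold lower, from 13.94, 14.00 and 14.04 to 13.52, 13.29 and 13.37, and another of its probe sets was not called. Glycolysis genes were higher in 3 and lower in 3 of 21, and higher in 3 and lower in 8 after median centring. Ldha, lactate dehydrogenase A, was 1.62-fold and Hk1, hexokinase, 1.65-fold lower, and Slc16a3, a lactate exporter, 3.82-fold higher, while Slc2a1, the glucose transporter, was not called (log2 difference 0.21, adjusted p = 0.19). Hypoxia-induced genes were higher in 6 (3 without spinal cord replicate 3 or after median centring) and lower in 3 of 19, led by Ndrg1 at 7.17, 7.03 and 7.06 in brain and 11.16, 11.05 and 11.11 in spinal cord, 16.2-fold higher (adjusted p = 1.9e-10). Vegfa, a classical target of hypoxia, was not called (log2 difference 0.07, adjusted p = 0.78).

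Genes of serine, glycine and folate metabolism, which feeds nucleotide synthesis, were lower in 7 and higher in 1 of 18 with all arrays, lower in 15 without spinal cord replicate 1 and in 12 after median centring. Cth, which makes cysteine from cystathionine, read 10.23, 9.53 and 10.21 in brain and 7.28, 6.91 and 5.47 in spinal cord, 10.8-fold lower (adjusted p = 8.7e-06). Aldh1l2, a mitochondrial folate enzyme, was 2.41-fold higher. Mthfd2, another mitochondrial folate enzyme, was not called (log2 difference -0.16, adjusted p = 0.62) and was 1.38-fold lower without spinal cord replicate 1 (adjusted p = 0.034). Genes of amino acid stress and unfolded proteins were higher in 8 and lower in 5 of 26 (3 lower without brain replicate 1 and 9 after median centring). These shares were 30.77% and 19.23%, against 21.2% and 22.8% over all genes tested, with a median log2 difference of 0.03, so the counts are descriptions. Slc7a11, the cystine transporter, was 2.61-fold higher and Atf5 1.71-fold lower. Hspa5, the main chaperone of the endoplasmic reticulum, was not called (log2 difference -0.12, adjusted p = 0.34). Antioxidant genes of the NRF2 response were lower in 8 of 23 and higher in 4 (2 through cord and 1 through brain alone), the latter falling to 1 or 2 without brain replicates 1 and 2 or spinal cord replicates 1 and 3 and to 2 after median centring. Gclc, which starts glutathione synthesis, was 2.53-fold and the metallothionein Mt2A 2.22-fold lower, while Nqo1 was not called (log2 difference -0.02, adjusted p = 0.97). Among genes that handle glutamate and other transmitters 6 were higher and 4 lower of 17 (1 through each tissue alone), with Slc1a1, a glutamate transporter, 3.57-fold higher.

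The differentiated arrays were used to ask which of these tissue differences held outside the proliferative state. Of the 1119 genes called higher in spinal cord by 2-fold or more, 490 were also called higher in differentiated cultures (22.3% of all tested genes were), 291 were called lower (22.4%) and 338 were not called. Of the 475 lower genes, 204 were lower, 74 higher and 197 not called. The difference between both tissue contrasts was called for 44.9% of all genes tested. Hox genes were called higher in 18 of 19 cases in differentiated cultures too, and 3 of 19 differed between the states. Of the 19, 18 had no brain array of either state above its percentile. Their direction was thus set by the filter in differentiated cultures as well, and this count is a description. Fibroblast genes were higher in 31 and lower in 2 of 33 in differentiated cultures (8 through cord alone), with a median that moved from 1.35 to 3.86 with dim groups at the floor. Oligodendrocyte precursor markers, in contrast, were lower in 13 and higher in 2 of 15, and the state contrast was called in 14 of 15. For Sox10 the log2 difference between the state-specific tissue differences was -5.08, and for Cspg4 -5.38. Mature oligodendrocyte markers were higher in 4 and lower in 5 of 22, microglial markers higher in 12 and lower in 0 of 18 (2 through cord alone), and mitosis genes higher in 3 and lower in 2 of 26. Astrocyte markers were higher in 1 and lower in 19 of 25 (1 through cord and 2 through brain alone). Chemokine and inflammatory genes were higher in 24 and lower in 1 of 29 (4 through cord alone). Cholesterol genes were higher in 2 and lower in 2 of 20.

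**Figure D5:**
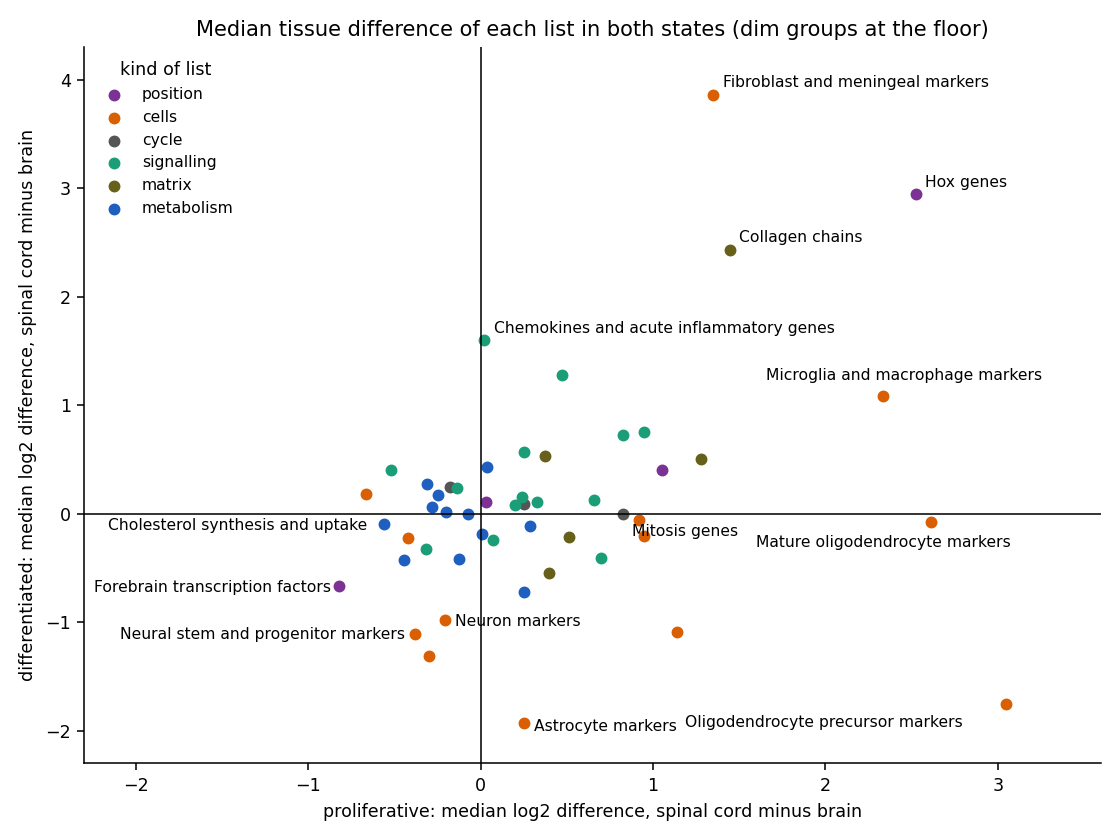
Each point is a gene list with 9 or more tested members, at its median log2 difference, spinal cord minus brain, in proliferative cultures (horizontal) and differentiated cultures (vertical), with dim groups at the floor. Hox, collagen and fibroblast lists lie above 0 on both axes, though 18 Hox genes entered only through cord arrays. The oligodendrocyte precursor list is at 3.05 in proliferative and -1.75 in differentiated cultures.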

How the data were processed

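RNA of 12 rat NSC samples was measured on Affymetrix Rat230_2 arrays, in 4 groups of 3. Per the labels' protocols, DNase-treated total RNA was amplified to biotinylated cRNA from the 3' end. The submitters' processing notes name MAS5 and affy without versions. The deposited values are log2 signals: on the linear scale each array's mean, with 2% trimmed at both ends, is 500.0, and genes are not centred. Scanner files were not used here, and 3 arrays per group limit the precision.

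A probe set was tested where at least 3 of 12 arrays exceeded their own 40th percentile, which kept 20834 of 31042 after 57 controls were left out. The platform annotation named 1 gene for 20826 probe sets, more than 1 for 436 and no gene for 9780, and 20758 matched a current rat gene by Entrez ID. One model with 4 group means was fitted to the 12 arrays (limma 3.58.1, lmFit and eBayes with trend, 8 residual degrees of freedom, R 4.3.3), and figures were drawn in Python 3.11.15. The code was tested on simulated data. Alternatives were other array scalings, pseudocounts and filters, array weights, a fit without trend, only the 6 proliferative arrays, a replicate block and leaving out each array.

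Genes named are the 12 with the largest called difference in each direction (dim groups at the floor), without overlap and with the higher group above its arrays' 60th percentiles, and, from 54 gene lists, preset key members and up to 2 further called members in each direction. Where a list had 5 or fewer members called in a direction, all of these could be named. Members, lists and rule were chosen with earlier results of these data known.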

Additional observations from a re-analysis of the deposited data

Results flagged for a closer look

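For 20 of the genes named, the tissue difference was called in both states by 2-fold or more, in opposite directions, and the difference between the states was itself called by limma. That last call follows largely from the choice of opposite differences and adds no separate support. Values are log2 differences of differences, differentiated minus proliferative, so a negative value means that the advantage of spinal cord over brain seen in proliferative cultures was turned round. Among glial genes these were Tril (-6.10), C1ql1 (-5.63), Cspg4 (-5.38), Sox10 (-5.08), Nkx2-2 (-5.05), S100b (-4.60), Aldoc (-3.84) and Aqp4 (-2.52). Of brain matrix and adhesion genes they were Bcan (-5.28), Tnr (-4.84), Sdc3 (-4.38), Cdh10 (-4.80) and Ncam1 (-3.76). The growth cone gene Gap43 was at -3.46 and the immediate early gene Fos at -2.56.

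Genes lower in proliferative and higher in differentiated spinal cord cultures were Foxp2 (9.41), Fzd6 (3.46), Gli2 (3.13), Tcf7 (2.56) and Penk (2.30). Foxp2 was dim in proliferative spinal cord and differentiated brain, and Tnr in proliferative brain, so their values are the fitted ones and no bounds.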

How the results depend on the processing

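With all arrays 4033 probe sets were higher and 3844 lower in spinal cord, and 8434 differed in their tissue difference between the states. After each array was centred on its median, 6214 were lower and 2884 higher. Leaving out 1 array at a time gave 3365 to 4300 higher, 3054 to 4348 lower and 7696 to 9179 differing between the states. The sources do not say whether replicate numbers pair the samples. Deviations of same-numbered brain and cord arrays correlated at 0.01, -0.07 and 0.01, and those of arrays with different numbers at -0.08 to 0.08. With 3 arrays per group these values cannot decide it. With the replicate number as a block 3888 were higher, 3643 lower and 8072 differed between the states. With only the 6 proliferative arrays 3176 were higher and 2976 lower, and with limma array weights, where spinal cord replicate 1 weighed 0.27, 4535 and 4639. Of 339 named genes, 242 kept their direction and side of the threshold under every alternative run, 97 did not under some, and 0 changed direction while called. With array weights 14 DNA replication, 25 interferon-induced and 14 serine and folate genes were called lower, higher and lower. Counts of list members moved by over 1.5 times most often under median centring, in 24 of 108, and 13 of 108 did so with a filter at the 60th percentile, which tested 13999 probe sets, 4 of the forebrain factors then being called lower and 11 of the microglial markers higher. Depth here means signal over background: a fold against a dim group is only a lower bound.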
